A study of Mus musculus with 4 samples.

Results

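The neuronal splicing and RNA-binding regulators described here are 10 genes taken by name from the 24319 gene names of the deposited tables. They are Srrm4, Nova1, Celf3, Rbfox2 and Rbfox3, whose proteins act on alternative exons, Elavl2, Elavl3 and Elavl4, the neuronal members of the ELAVL family, and the polypyrimidine tract proteins Ptbp1 and Ptbp2. All 10 had a row in each table. Expression was measured by RNA-seq of bulk tissue in 2 TRAMP tumours and 2 normal prostates. The tumours came from late-stage males at 24 weeks per the sample labels (24 to 28 weeks per the protocols) that were heterozygous for a transgene in which the rat probasin promoter drives SV40 T antigen. The normal prostates came from wild-type males at 22 weeks, and all animals were F1 offspring of C57BL/6 and FVB parents. The probasin promoter is active in prostate epithelium, so the model directs the viral oncogene to that compartment. Each normal prostate was taken whole for RNA from a single mouse, per the protocols. Whether the tumours were from separate mice is not stated, and the p-values describe variation among these 4 libraries. In bulk tissue, fewer cells of a type and less RNA per cell cannot be told apart.

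Neurons use exons and 3' ends that most other cells skip, and these proteins set much of that programme. Ptbp1 represses neuronal exons in non-neuronal cells, among them an exon that keeps Ptbp2 transcripts productive. Srrm4 (nSR100) promotes inclusion of very short neural exons, Nova and Rbfox proteins activate or repress exons according to where they bind, and the neuronal ELAVL proteins bind AU-rich and U-rich elements, stabilise transcripts and influence splicing. Several of these genes are markers of neuroendocrine differentiation in human prostate cancer, where SRRM4 is known for splicing the transcript of the repressor REST.

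The upstream sequences of 5 of the genes are shown to set genes listed at 0 or near 0 in both normal prostates (Srrm4, Elavl3, Nova1 and Celf3) beside Ptbp1, which was detected in all 4 libraries. Each is the 250 bases before a RefSeq start site (build GRCm38.p6), written 5' to 3' on the gene's own strand, and capitals mark CAGCTG, an E-box core. The windows are chr5:116591818-116592067 (minus strand) for Srrm4, chr9:22052024-22052273 (minus) for Elavl3, chr12:46818768-46819017 (minus) for Nova1, chr3:94478045-94478294 (plus) for Celf3 and chr10:79854182-79854431 (plus) for Ptbp1. The start site used for Nova1 lay 8 bases from the deposited 5' end, and those of the other 4 matched it.
Srrm4: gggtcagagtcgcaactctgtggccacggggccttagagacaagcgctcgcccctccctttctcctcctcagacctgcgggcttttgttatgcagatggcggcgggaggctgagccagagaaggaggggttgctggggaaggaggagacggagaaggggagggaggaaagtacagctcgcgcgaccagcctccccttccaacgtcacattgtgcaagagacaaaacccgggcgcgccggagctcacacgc
Elavl3: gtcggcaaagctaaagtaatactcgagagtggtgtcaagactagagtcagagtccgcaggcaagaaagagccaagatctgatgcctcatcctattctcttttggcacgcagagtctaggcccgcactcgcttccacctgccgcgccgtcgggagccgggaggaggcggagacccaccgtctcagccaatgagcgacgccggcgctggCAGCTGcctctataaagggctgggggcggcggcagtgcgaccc
Nova1: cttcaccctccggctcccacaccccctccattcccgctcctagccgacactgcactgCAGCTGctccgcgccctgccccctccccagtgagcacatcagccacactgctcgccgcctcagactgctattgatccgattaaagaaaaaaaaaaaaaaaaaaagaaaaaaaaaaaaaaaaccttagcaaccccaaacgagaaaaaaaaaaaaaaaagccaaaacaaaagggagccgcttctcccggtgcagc
Celf3: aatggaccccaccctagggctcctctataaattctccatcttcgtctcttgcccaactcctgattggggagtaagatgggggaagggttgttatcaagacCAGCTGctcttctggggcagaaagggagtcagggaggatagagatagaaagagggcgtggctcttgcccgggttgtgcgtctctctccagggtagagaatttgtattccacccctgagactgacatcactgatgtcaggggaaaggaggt
Ptbp1: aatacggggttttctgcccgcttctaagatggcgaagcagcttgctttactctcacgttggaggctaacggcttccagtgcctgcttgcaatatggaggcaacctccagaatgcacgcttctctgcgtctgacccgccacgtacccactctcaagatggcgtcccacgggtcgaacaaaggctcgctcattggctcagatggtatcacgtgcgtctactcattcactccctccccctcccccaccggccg

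RefSeq windows were held for 9 of the 10 genes, Rbfox2 being the gene without one. Where a gene had several (7 for Celf3, 6 for Elavl2 and 4 for Elavl4), the window nearest the deposited 5' end was used. The Rbfox3 window, counted among the 9, lay 150556 bases from the deposited 5' end of that gene. CAGCTG, searched on both strands, occurred in 3 of those 9 windows, those of Elavl3, Nova1 and Celf3, and in 13.0% of all 32851 windows of that length. In Elavl3 and Nova1 it lay within the longer palindrome GCAGCTGC, which contains CAGCTG and was found in 1.47% of all windows; this longer form was singled out after the windows were seen. The CAGCTG began 43 bases before the start site in Elavl3, 193 bases before it in Nova1 and 150 bases before it in Celf3. All 3 windows with CAGCTG are printed above. Those of Elavl2 and Elavl4, also listed at 0 in both normal prostates, held no CAGCTG and are not printed. TTCAGCACC, the left part of the REST element, was in 0 of the 9 windows and in 0.301% of all windows, and GGACAG, part of its right side, was in 2 of 9 (Elavl2 and Ptbp2) and in 18.7% of all. CpG dinucleotides numbered 20 in Elavl3, 17 in Srrm4, 17 in Ptbp1, 11 in Nova1 and 4 in Celf3, against a median of 6 over all windows. Ptbp1 and Srrm4 thus held the same number. In the windows not printed, CpG dinucleotides numbered 23 in Ptbp2, 14 in Elavl4, 10 in Elavl2 and 3 in Rbfox3. A match of letters is a description of the window and shows no binding.

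Values are FPKM (fragments per kilobase of transcript, scaled to sequencing depth) divided by a scaling factor per library, called scaled FPKM. The factors were 1.34 and 1.50 for the tumours and 0.793 and 0.689 for the normal prostates, a shift of 0.94 on the log2 scale. The deposited tables hold no counts, and the number of fragments behind a value was implied from the width of its Cufflinks interval. Summed over all genes it came to 1431957 and 1141314 implied fragments in the tumours and 985509 and 1578847 in the normal prostates. The tumours resembled each other less (Pearson's r of 0.764 across 13162 genes, which are not independent replicates) than the normal prostates did (0.958), and tumour 1 lay farther from the normal prostates (r of 0.468 and 0.473) than tumour 2 (0.703 and 0.709). The luminal keratin Krt8 was at 0.258 scaled FPKM in tumour 1 and 438 in tumour 2, against 178 and 191 in the normal prostates. The 10 luminal epithelium markers summed to 622 and 1818 in the tumours and to 9126 and 8749 in the normal prostates, with 4 of them listed at 0 in tumour 1 and 0 in the other libraries. Pbsn made up most of the normal sums, at 7022 and 6280, against 0 and 14.2 in the tumours. Both tumours lay below both normal prostates for 8 of the 10 markers, where 33.3% of all genes tested did so, and above them for 1.

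Of the 10 regulators, 7 rose in the tumours, 0 fell and 3 did not pass the test. The 7 were Srrm4, Nova1, Celf3, Rbfox2, Elavl2, Elavl3 and Elavl4, and the 3 were Rbfox3, Ptbp1 and Ptbp2. Over all 13162 genes tested, 9.85% were called higher and 8.27% lower by limma with Benjamini-Hochberg adjustment at 0.05. All 10 passed the filter of at least 1 FPKM in 2 libraries. Of these, 6 (Srrm4, Nova1, Celf3, Elavl2, Elavl3 and Elavl4) reached it through the tumours alone and so could hardly have been tested without differing, and the count is a description only. Both tumours lay above both normal prostates in 8 of the 10, where 37.7% of all genes tested did so, and Ptbp1 and Ptbp2 were the 2 whose groups overlapped. The same 6 genes are among those 8, so this count too is a description only. Every call rested on having both normal prostates. Without normal 1 or without normal 2, limma called 0 of 12722 or 12822 genes higher or lower, while 1338 or 1350 genes, among them 7 of the regulators each time, were higher at an unadjusted p under 0.05.

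**Figure D1:**
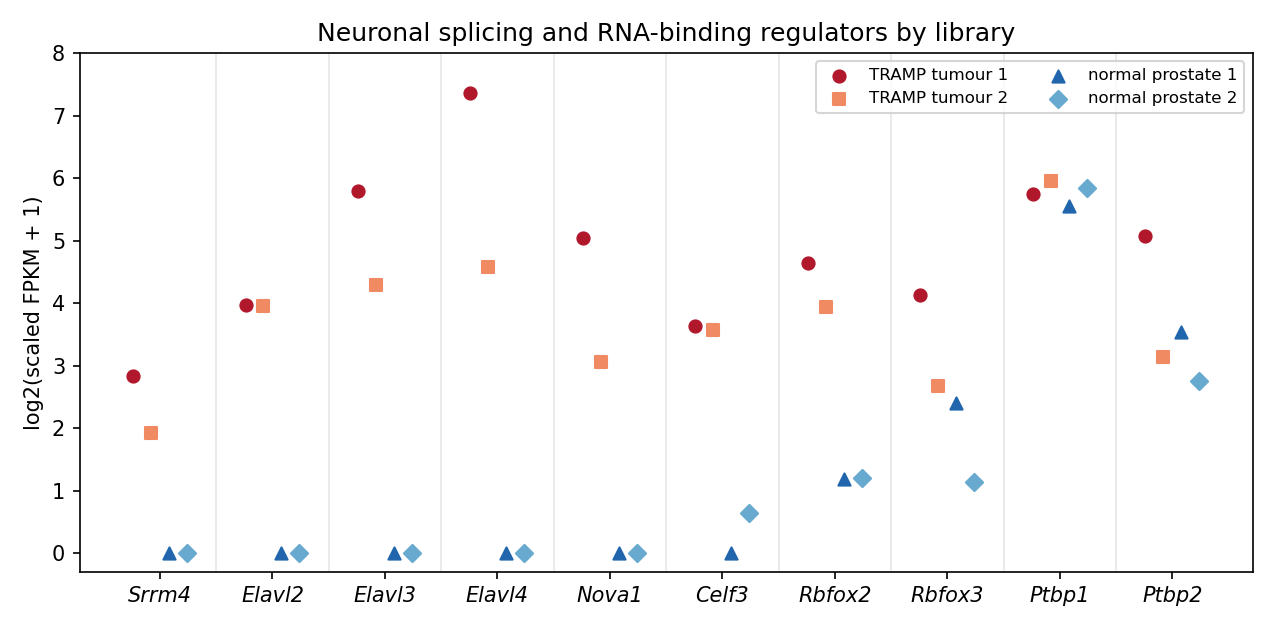
Level of each of the 10 regulators in each library, as log2(scaled FPKM + 1) on the vertical axis, with 1 point per library (tumours in red and orange, normal prostates in blue). Srrm4, Elavl2, Elavl3, Elavl4 and Nova1 sit at 0 in both normal prostates and above it in both tumours, while the points of Ptbp1 lie close together between 45.8 and 61.3 scaled FPKM.

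Srrm4, the activator of neural microexons (chromosome 5, 116439273 to 116591817, build mm10), was at 6.14 and 2.81 scaled FPKM in the tumours and was listed at 0 in both normal prostates (adjusted p = 0.0345, limma). It was the lowest of the 10 in both tumours, and its values rested on 101 and 40.1 implied fragments. At the level of tumour 2, Srrm4 would have given about 20.4 fragments in normal 1 and 30.2 in normal 2, and none were found there. The call was lost under quantile normalization (log2 fold change 1.92, adjusted p = 0.0832) and without the filter on low values (adjusted p = 0.0646), and over the 12 alternatives in which it was tested the adjusted p ran from 0.00643 to 0.231. Srrm4 overlaps Srrm4os on the opposite strand, which was at 0.262 and 0.539 in the tumours and listed at 0 in the normal prostates.

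Its paralog Srrm3, which also promotes neural microexons, showed the same arrangement of libraries. Srrm3 was at 13.6 and 6.00 in the tumours and listed at 0 in both normal prostates (adjusted p = 0.0256), so it was above Srrm4 in each tumour on this length-scaled measure. Srrm2, a general component of the spliceosome, fell to 51.5 and 41.9 in the tumours, against 127 and 139 in the normal prostates (log2 change -1.50 with SE 0.26, adjusted p = 0.0298). The Srrm2 call was lost with deposited FPKM (-0.57), scaling to the sum without genes above 1% and quantile normalization. It was also lost without the filter on low values and without the intensity trend. It held with a pseudocount of 0.1, a filter of 1 FPKM in 1 library and voom on implied fragments. Gene tables do not give exon inclusion, which was not analysed here, so these are levels of the regulators and not of the exons they act on.

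Nova1, a regulator of neuronal exons that binds YCAY clusters (chromosome 12, 46694517 to 46818775), was at 31.8 and 7.29 scaled FPKM in the tumours, from 516 and 101 implied fragments, and was listed at 0 in both normal prostates (adjusted p = 0.0330). The level in tumour 1 was 4.36 times that in tumour 2. At the level of tumour 2 the gene would have given about 52.4 and 77.5 fragments in the normal libraries. The paralog Nova2 was at 3.09 and 1.52 in the tumours and at 0.342 and 0 in the normal prostates, and did not pass (log2 change 1.47 with SE 0.42, adjusted p = 0.0712). It did pass with FPKM as deposited (1.87) and with scaling to the sum without genes above 1% (1.76). Nova1 thus held 91.2% and 82.8% of the FPKM of the pair in the tumours.

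Celf3, a CELF protein of brain (chromosome 3, 94478295 to 94492198), was at 11.4 and 10.9 scaled FPKM in the tumours, and was listed at 0 in normal 1 and at 0.561 in normal 2, a value that rested on 0.7 implied fragments. The tumours differed from each other by only 1.04 times, in contrast to Nova1. Celf3 passed the test (adjusted p = 0.0219), and its fitted log2 change depended on the pseudocount, at 3.28 with 1 and 5.45 with 0.1. Among the paralogs restricted largely to neurons, Celf4 rose to 48.4 and 20.8 in the tumours, against 0.799 and 0.516 in the normal prostates, where the values rested on 0.93 and 0.94 implied fragments (adjusted p = 0.0210). Celf5 rose to 13.9 and 4.53 in the tumours, with 0.0222 and 0 in the normal prostates, where no level could be told from 0 (adjusted p = 0.0336). Celf6 rose to 14.2 and 3.79, against 0.363 and 0 (adjusted p = 0.0479), the weakest of these calls, which was lost under 6 of the 8 other processing settings with all 4 libraries and held with FPKM as deposited and with the sum scaling. The widely expressed Celf1 (56.6 and 19.3 in the tumours, 13.8 and 20.2 in the normal prostates, adjusted p = 0.276) and Celf2 (12.9 and 13.8 against 9.48 and 6.76, adjusted p = 0.231) did not pass. Without tumour 2, Celf1 had a log2 fold change of 1.71, which passed among the genes that the filter then kept (adjusted p = 0.000927) and did not among those of the 4-library filter (adjusted p = 0.0872). Celf3 to Celf6 together made up 55.8% and 54.7% of the summed CELF FPKM in the tumours and 4.85% and 3.85% in the normal prostates.

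Rbfox2, a UGCAUG-binding splicing regulator found in neurons, muscle and epithelium (chromosome 15, 77078990 to 77307053), was the only called regulator detected in both normal prostates. It was at 23.9 and 14.4 scaled FPKM in the tumours and at 1.27 and 1.30 in the normal prostates, from 335 and 172 implied fragments in the tumours and 4.0 and 7.3 in the normal prostates. The means were 19.1 ± 6.72 in the tumours and 1.29 ± 0.0158 in the normal prostates (SD, n = 2 each), and the rise was 8.57-fold on the scale of scaled FPKM + 1 (log2 change 3.10 with SE 0.44, adjusted p = 0.0230). The log2 change was 3.75 with a pseudocount of 0.1 and 4.55 with voom on implied fragments. Rbfox2 overlaps 1700109K24Rik on the opposite strand, which was at 0.930 and 1.64 in the tumours and listed at 0 in the normal prostates.

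Rbfox3, the neuronal nuclear antigen NeuN (chromosome 11, 118489760 to 118911597), was at 16.5 and 5.40 in the tumours and at 4.28 and 1.21 in the normal prostates, and did not pass (log2 change 1.63 with SE 0.73, adjusted p = 0.163). The tumour 2 and normal 1 values lay close together, and the normal values rested on 9.1 and 2.7 implied fragments. Without tumour 2 the log2 fold change was 2.33, which passed among the 11043 genes that the filter then kept (adjusted p = 0.00296) and did not among the genes of the 4-library filter (adjusted p = 0.155). Over the 14 alternatives the adjusted p ran from 0.00296 to 0.579. Rbfox1, the paralog of brain and muscle, was at 12.9 and 1.25 in the tumours and at 0.240 and 0 in the normal prostates (adjusted p = 0.131). Within the family, Rbfox2 held 44.8% and 68.4% of the FPKM in the tumours and 22.0% and 51.8% in the normal prostates.

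The 3 neuronal ELAVL genes were listed at 0 in both normal prostates and were among the more abundant regulators in the tumours. Elavl4 (HuD, chromosome 4, 110203737 to 110351911), which stabilises transcripts such as that of Gap43 in neurons, was at 163 and 22.8 scaled FPKM in the tumours (adjusted p = 0.0269). It was the highest of all 10 regulators in tumour 1, 7.14 times its level in tumour 2, where Ptbp1 was the highest. Elavl3 (HuC, chromosome 9, 22015005 to 22052023), a marker of differentiated neurons, was at 54.6 and 18.5 (adjusted p = 0.0208). Elavl2 (HuB, chromosome 4, 91250767 to 91399984), the earliest of the 3 in neuronal development, was at 14.7 and 14.5 (adjusted p = 0.0195). The tumours thus agreed on Elavl2 to within 1.01 times and were farthest apart on Elavl4. At the level of tumour 2, Elavl4 would have given about 74.4 and 110 fragments in the normal libraries, Elavl3 94.2 and 139, and Elavl2 56.3 and 83.1.

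Elavl1 (HuR), the ubiquitous member, was at 13.4 and 7.84 in the tumours and at 11.5 and 11.7 in the normal prostates (log2 change -0.16 with SE 0.40, adjusted p = 0.791), and its sign turned with FPKM as deposited (0.70). The balance within the family does not depend on library scaling. The summed FPKM of Elavl2, Elavl3 and Elavl4 was 17.3 and 7.11 times that of Elavl1 in the tumours and 0 times in both normal prostates. The 3 genes held 94.5% and 87.7% of all ELAVL FPKM in the tumours.

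**Figure D2:**
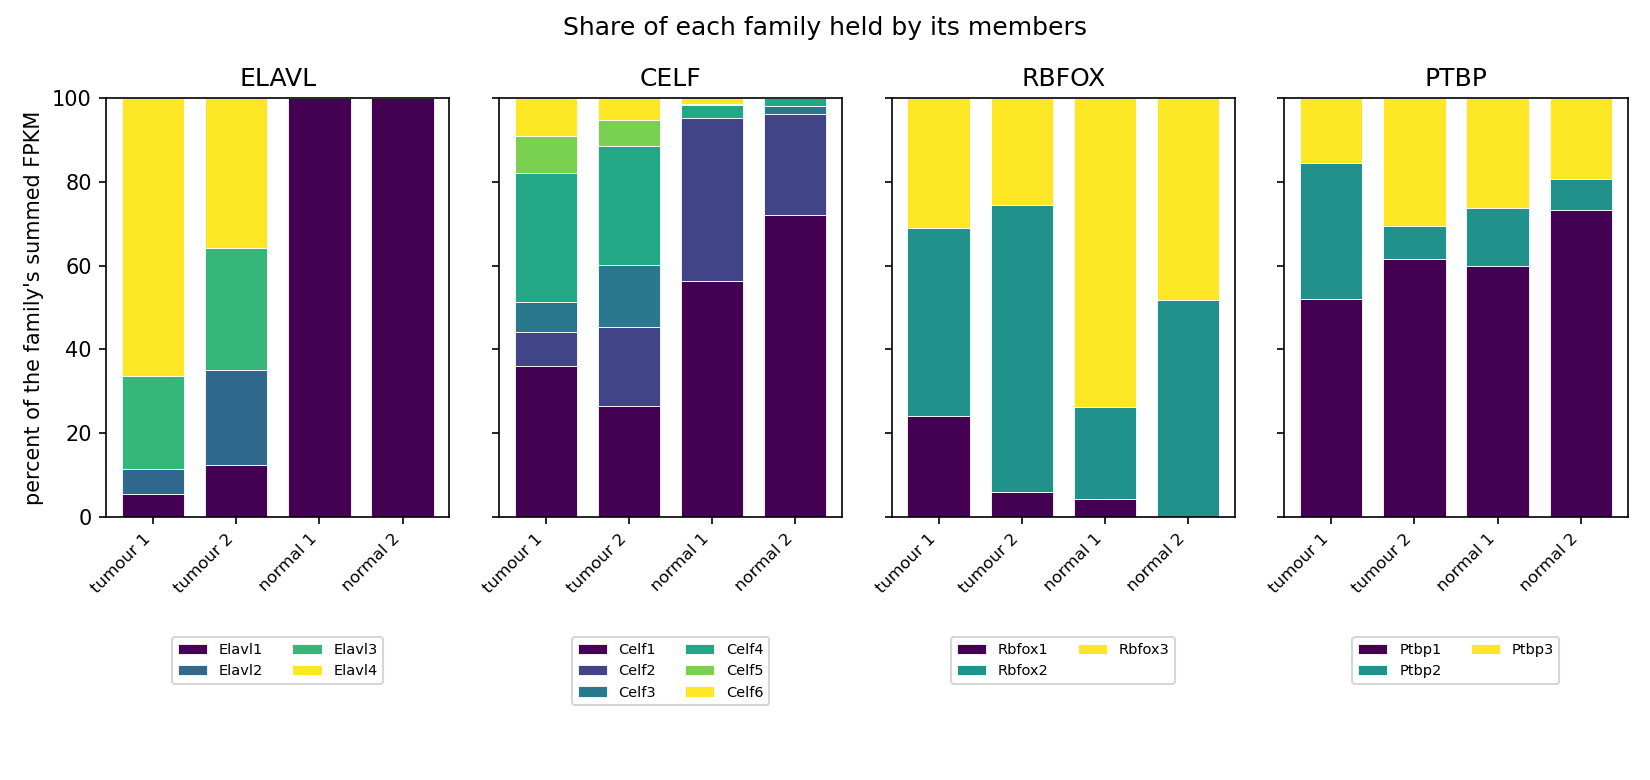
Percent of the summed FPKM of the ELAVL, CELF, RBFOX and PTBP families held by each gene, with 1 stacked bar per library, tumours left of normal prostates. Elavl1 fills the ELAVL bars of both normal prostates and takes 5.46% and 12.3% of those of the tumours, whereas Ptbp2 takes 32.3% of the PTBP bar in tumour 1 and 7.88% in tumour 2, against 13.9% and 7.48% in the normal prostates.

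Ptbp1, the repressor of neuronal exons (chromosome 10, 79854432 to 79864435), was at 52.6 and 61.3 scaled FPKM in the tumours and at 45.8 and 56.6 in the normal prostates, so the groups overlapped. The means were 56.9 ± 6.14 in the tumours and 51.2 ± 7.64 in the normal prostates (SD, n = 2 each), an estimated log2 change of 0.16 (SE 0.27, adjusted p = 0.699). Behind Ptbp1 stood 328 and 331 implied fragments in the tumours and 128 and 239 in the normal prostates. The result depended on scaling. With FPKM as deposited, at 70.6 and 92.1 in the tumours against 36.3 and 39.0, Ptbp1 passed (1.08, adjusted p = 0.0447), and over the 14 alternatives the adjusted p ran from 0.0447 to 0.963. No setting gave a fall that passed. Ptbp1 overlaps Lppr3, a neuronal membrane protein gene on the opposite strand, which was at 53.5 and 9.13 in the tumours and at 0.363 and 2.59 in the normal prostates; its part in the Ptbp1 value was not tested.

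Ptbp2, the neuronal paralog (chromosome 3, 119718742 to 119783388), was at 32.6 in tumour 1 and 7.84 in tumour 2, against 10.6 and 5.78 in the normal prostates. Tumour 1 stood alone above the other 3 libraries and the groups overlapped (log2 change 0.96 with SE 0.74, adjusted p = 0.377). Without tumour 2 the log2 fold change was 1.92, which passed among the genes that the filter then kept (adjusted p = 0.00134) and did not among the genes of the 4-library filter (adjusted p = 0.113). Without tumour 1 it was 0.06, and over the 14 alternatives the adjusted p ran from 0.00134 to 0.939. Ptbp3, the third paralog, was at 15.7 and 30.4 in the tumours and at 20.1 and 14.9 in the normal prostates (adjusted p = 0.609). The ratio of Ptbp2 to Ptbp1, taken within each library and so free of scaling, was 0.620 and 0.128 in the tumours and 0.232 and 0.102 in the normal prostates. The mean log2 ratio was 0.87 higher in the tumours, and the difference was -0.27 when tumour 1 was left out, so the higher ratio was that of tumour 1. No test was made of the ratio, and the smallest two-sided p that exact permutation allows with 4 libraries is 0.333. Mir124a-1hg, a host transcript of the neuronal microRNA miR-124 that represses Ptbp1, was at 2.26 and 0.380 in the tumours and listed at 0 in both normal prostates, and was chosen after its values were seen.

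**Figure D3:**
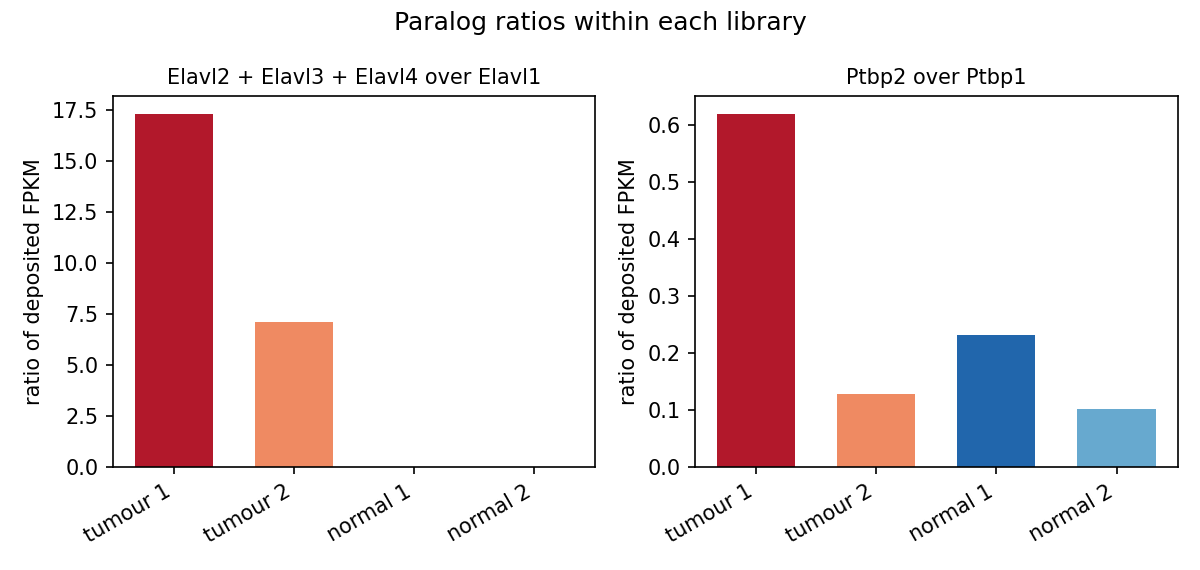
Ratio of deposited FPKM between paralogs within each library, with 1 bar per library from 0. The summed neuronal ELAVL genes exceed Elavl1 in both tumours (17.3 and 7.11) and are at 0 in the normal prostates, while Ptbp2 over Ptbp1 is high in tumour 1 (0.620) and lies in tumour 2 (0.128) between the normal values (0.232 and 0.102).

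The order of the regulators differed between the libraries. In tumour 1 it ran from Elavl4, Elavl3 and Ptbp1 through Ptbp2, Nova1, Rbfox2, Rbfox3, Elavl2 and Celf3 to Srrm4. In tumour 2 Ptbp1 came first, at 61.3, then Elavl4, Elavl3, Elavl2 and Rbfox2, then Celf3 at 10.9, while Ptbp2, Nova1 and Rbfox3 lay between 7.84 and 5.40 and Srrm4 came last. In both normal prostates Ptbp1 came first and Ptbp2 second. Among 12403 tested genes with names other than Rik and Gm models, those nearest to Srrm4 over the 4 libraries, by Euclidean distance of log2 values, were Zfp873 (0.10), Bsn (0.14) and Myt1l (0.15). Those nearest to Celf3 were Mcm8 (0.34), Pole2 (0.36) and Ncoa7 (0.39), and those nearest to Ptbp1 were Psmc2 (0.15), Ykt6 (0.24) and Ndufb5 (0.25).

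Of the 11 paralogs of these genes, 4 rose (Srrm3, Celf4, Celf5 and Celf6), 1 fell (Srrm2) and 6 did not pass. Of all genes tested, 9.85% were called higher and 8.27% lower. The median log2 fold change of the paralogs was 1.47, against 0.07 over all genes tested. Of the 11, 6 passed the filter through the tumours alone. Among the other 5, 0 were called higher and the median was 0.32, against -0.17 over all genes tested without those that passed through the tumours alone. Of 17 other splicing regulators that depend on tissue, 15 were tested, 2 rose, 1 fell and 12 did not pass, with a median of 0.49. Without the 3 that passed the filter through the tumours alone the median was -0.37, with 1 of 12 called higher. Khdrbs2 (SLM1), a STAR protein of brain, was at 20.7 and 6.30 in the tumours and listed at 0 in both normal prostates (adjusted p = 0.0304). Its relative Khdrbs3 (SLM2) rose to 36.2 and 29.3, against 8.26 and 4.10 (log2 change 2.29 with SE 0.43, adjusted p = 0.0336). Rbm47, an epithelial RNA-binding protein, fell to 0 and 3.40 in the tumours, against 27.5 and 18.6 (log2 change -3.49 with SE 0.80, adjusted p = 0.0468). With all 4 libraries, the Rbm47 call held under quantile normalization (adjusted p = 0.0394, limma) and was lost under every other alternative processing setting. With deposited FPKM the estimate was -2.84. The epithelial splicing factors were also lowest in tumour 1 and did not pass. Esrp1 was listed at 0 in tumour 1 and at 25.3 in tumour 2, against 73.4 and 57.7 (adjusted p = 0.146), and Esrp2 was listed at 0 and at 6.30, against 24.9 and 27.05 (adjusted p = 0.0758). Both were named after their values were seen.

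Rest, the repressor of neuronal genes whose transcript Srrm4 is known to splice, was listed at 0 in tumour 1 and was at 1.91 in tumour 2, against 1.37 and 1.94 in the normal prostates (log2 change -0.63 with SE 0.61, adjusted p = 0.476). Without tumour 1 the sign turned (0.18). Of 12 genes of the REST complex, 2 rose, 0 fell and 10 did not pass, with a median of 0.45. Over all genes tested, 9.85% were called higher. Rcor2, a corepressor of stem and neural progenitor cells, rose to 9.35 and 5.90, against 1.54 and 0.696 (2.03, SE 0.47, adjusted p = 0.0477), and Hdac2, a histone deacetylase, rose to 102 and 52.2, against 18.6 and 23.8 (1.75, SE 0.41, adjusted p = 0.0496). Both lay just inside the threshold and were lost under a pseudocount of 0.1 (2.72 and 1.79). Both were also lost without the filter on low values, with a filter of 1 FPKM in 1 library and with voom on implied fragments. Rcor2 was lost under quantile normalization as well, and Hdac2 without the intensity trend. Both held with FPKM as deposited and with the sum scaling.

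Of 24 genes known as REST targets, 23 were in the tables and 22 were tested. Of those 22, 20 rose, 0 fell and 2 did not pass, where 9.85% of all genes tested were called higher. The median log2 fold change was 3.50, but 19 of the 22 passed the filter through the tumours alone. The 4 with the smallest p were Chga, Snap25, Scg3 and Syp. Chga, a granule protein of neuroendocrine cells, was at 133 and 396 in the tumours and listed at 0 in both normal prostates (adjusted p = 0.0195). Syp, a synaptic vesicle protein, rose to 43.2 and 34.4, against 0.408 and 0.553 from 1.0 and 1.99 implied fragments (adjusted p = 0.0195). Snap25, a component of the synaptic fusion machinery, was at 40.5 and 65.2 in the tumours, Scg3, a granule protein, was at 49.1 and 33.8, and both were listed at 0 in the normal prostates (adjusted p = 0.0195 each). Chga and Snap25 were higher in tumour 2 than in tumour 1, as was Ptbp1. In deposited FPKM Elavl2 (19.7 and 21.8) and Celf3 (15.3 and 16.4) also had their higher value in tumour 2, while in scaled FPKM the 9 regulators other than Ptbp1 were higher in tumour 1.

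Of 33 genes that host neural microexons, 31 were tested, 3 rose, 0 fell and 28 did not pass, a share of rises close to the 9.85% of all genes tested, with a median log2 fold change of 0.43. Without the 3 that passed the filter through the tumours alone the median was 0.37, with 1 of 28 called higher. Apbb1, an amyloid precursor binding protein with a microexon that Srrm4 promotes, rose to 55.4 and 23.0, against 1.62 and 0.733 from 1.72 and 0.95 implied fragments (adjusted p = 0.0225). Nrcam, a neural adhesion gene, was at 7.45 and 3.36 in the tumours and listed at 0 in both normal prostates (adjusted p = 0.0319). Of 16 transcripts that neuronal ELAVL or PTBP proteins are known to act on, 6 rose, 0 fell and 10 did not pass, where 9.85% of all genes tested were called higher, with a median of 0.64. Of the 16, 5 passed the filter through the tumours alone. Among the other 11, 2 rose and the median was -0.29. Dlg4 (PSD-95), whose transcript PTBP proteins keep low outside neurons, rose to 48.6 and 42.9, against 1.19 and 0.202 from 2.93 and 0.54 implied fragments (adjusted p = 0.0195). Cdkn1b, which encodes the cell cycle inhibitor p27, rose to 95.7 and 61.7, against 11.1 and 8.30 (2.88, SE 0.36, adjusted p = 0.0210), and Pkm, a pyruvate kinase gene whose exon choice PTBP1 affects, rose to 509 and 510.0, against 164 and 165 (1.63, SE 0.22, adjusted p = 0.0219). Bdnf, a neurotrophin, was at 14.1 and 5.67 and listed at 0 in both normal prostates (adjusted p = 0.0269).

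**Figure D4:**
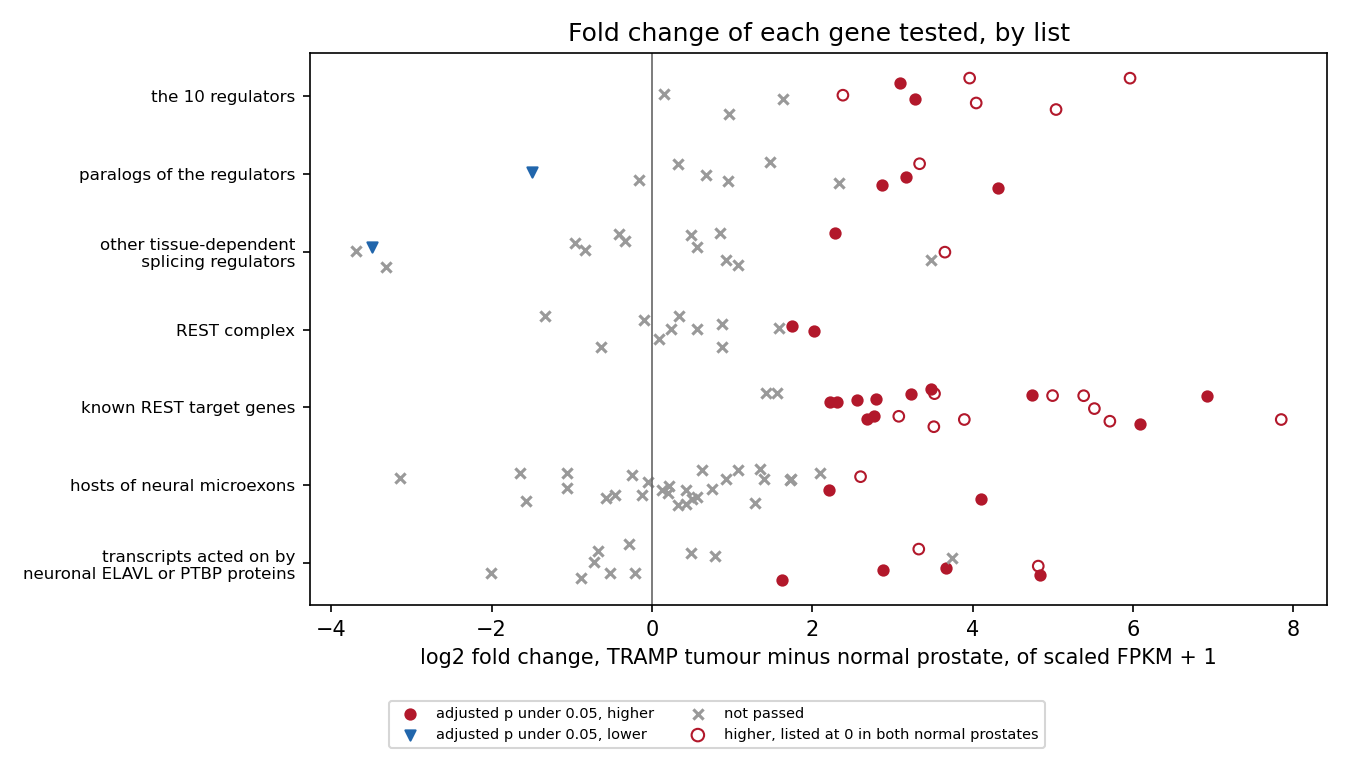
Log2 fold change (tumour minus normal prostate, of scaled FPKM + 1) of each gene tested, by list, with filled circles for genes that rose, triangles for genes that fell, crosses for genes that did not pass and open circles for genes that rose and were listed at 0 in both normal prostates, whose position depends on the pseudocount of 1. Of the known REST targets 20 of 22 rose, and of the microexon hosts 3 of 31, where 9.85% of all genes tested were called higher.

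Markers of other neural cells were compared beside these results. The 18 neuron and ganglion markers (8 tested) summed to 227 and 155 scaled FPKM in the tumours and to 2.22 and 4.52 in the normal prostates. For 9 of the 18 both tumours lay above both normal libraries, where 37.7% of all genes tested did so. The 18 include genes that were not tested, and 6 of the 8 tested passed the filter through the tumours alone. That count is therefore a description only. Snap25, Tubb3, the neurofilament Nefl and Prph made up most of that sum. Dbh and Vip, markers of autonomic ganglion neurons, were listed at 0 in both tumours, and Th, the tyrosine hydroxylase gene, was at 2.39 and 0.625. The 14 neuroendocrine markers (11 tested) summed to 687 and 1016 in the tumours and to 9.84 and 4.15 in the normal prostates. For 10 of the 14, against the same 37.7%, both tumours lay above the normal range, and Grp was listed at 0 in both tumours. The 14 also include untested genes, and 9 of the 11 tested passed the filter through the tumours alone, so this count too only describes the values. The 8 Schwann cell markers summed to 11.2 and 18.1 in the tumours and to 8.91 and 13.0 in the normal prostates, with Sox10 and Cdh19 listed at 0 in both tumours. Of other cell types, the 6 basal epithelium markers summed to 7.13 and 29.3 in the tumours and 81.9 and 77.9 in the normal prostates, with Trp63 listed at 0 in both tumours. The 8 smooth muscle markers summed to 23.5 and 124 in the tumours and 646 and 600 in the normal prostates. The 6 macrophage markers summed to 113 and 269 in the tumours and 6.34 and 5.85 in the normal prostates, and the 7 fibroblast markers to 81.2 and 401 in the tumours and 124 and 99.2 in the normal prostates. Although the fibroblast sum was lowest in tumour 1, both tumours lay above both normal prostates for 5 of the 7 and below them for 0. Of the 6 fibroblast markers tested, 2 passed the filter through the tumours alone. The part of any of these cell types in the values of the regulators was not tested.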

How the data were processed

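RNA-seq libraries of 2 TRAMP tumours and 2 normal prostates were used. Per the labels' protocols, total RNA was extracted from frozen tissue and libraries were made with a TruSeq kit. The authors deposited 1 Cufflinks gene table per library, with FPKM and interval bounds. TopHat2 2.0.8, Trim Galore, Cuffdiff 2.1.1 and Cufflinks 2.1.1, with the build mm10, are named per the submitters' processing notes. The annotation, settings, strand use and between-library scaling are not stated there, and overlapping genes cannot be told apart.

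The 27 rows with date-like names were left out, and rows of 280 repeated names were summed. Deposited starts count from 0 and were raised by 1 (6095 of 7254 plus-strand genes then matched a RefSeq start, 17 before). Implied fragments took the Cufflinks interval as 2 SD of a Poisson count on each side; 71.0 to 72.5% of low single-start rows were whole to a tolerance of 0.1, where chance gives 20%. They cover counting error only. A value of 0 may be a failed estimate and is given as listed at 0.

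FPKM were divided by median-of-ratios factors over 11469 genes and tested as log2(scaled FPKM + 1) with limma 3.58.1 in R 4.3.3 (intensity trend, two-sided, tumour minus normal, Benjamini-Hochberg over 13162 genes, threshold 0.05; 2 residual and 2.85 prior degrees of freedom). Fold changes on this scale understate those of low genes. The procedure was tested on simulated data with equal noise in every library and only genes above 1 scaled FPKM in the normal prostates. That test does not cover genes near 0 there, nor tumours that differ from each other more than the normal prostates do. Python 3.11.15, pandas 2.3.3, numpy 2.4.6 and matplotlib 3.10.9 were used otherwise. The 10 genes and all lists were chosen with earlier results of these data known. Named were the 10 genes, their paralogs and Rest whatever their result, from other lists the 4 smallest p in each direction among genes past the threshold, and the 3 genes nearest to Srrm4, Celf3 and Ptbp1; other names are said to be chosen after their values were seen, or are markers. Some genes of the lists are not reported here by name. Promoter sequences are from RefSeq, GRCm38.p6.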

Additional observations from a re-analysis of the deposited data

How the results depend on the processing

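Of the 10 regulators, 7 were called higher over all 4 libraries, and 6 to 8 were with FPKM as deposited, other scalings, a pseudocount of 0.1, a filter of 1 FPKM in 1 library, no intensity trend or voom on implied fragments. Without the filter on low values 2 were, Elavl2 and Elavl3, with 17072 genes tested. With 1 library left out the number ran from 0 to 7, and 0 were called lower. Those 6 regulators that were listed near 0 in the normal prostates leave the filter when a tumour is left out, so that 4 were tested, of which 1 was higher without tumour 1 and 3 without tumour 2. On the genes of the 4-library filter, an alternative chosen after seeing the data, leaving out tumour 1 left 6 and leaving out tumour 2 left 7, the single tumour being taken, as in every fit without a tumour, to vary like the normal libraries. Over all genes, 1296 were higher and 1088 lower (54.4% of calls higher), against 3681 and 427 (89.6%) with FPKM as deposited, 2537 and 554 (82.1%) scaled to the sum without genes above 1%, and 245 and 249 without the filter. With 1 library left out, 0 to 2170 were higher and 0 to 3405 lower; on the 4-library genes leaving out tumour 1 gave 1088 and 460, and leaving out tumour 2 gave 1902 and 1888. The direction of Elavl1 turned with FPKM as deposited (0.70) and the sum scaling (0.45). With 1 library left out, the log2 fold change of Elavl1 ran from -0.44 to 0.21 (turned without tumour 2), that of Ptbp1 from -0.051 to 0.34 (turned without normal 1), that of Ptbp3 from -0.12 to 0.85 (turned without tumour 2) and that of Rest from -1.30 to 0.18 (turned without tumour 1). The cause was not tested. The difference in mean log2 ratio of Ptbp2 to Ptbp1 ran from -0.27 to 2.01 with 1 library left out. That of Elavl2, Elavl3 and Elavl4 to Elavl1 has no value in the normal prostates, where the 3 genes are listed at 0; its tumour mean was 3.47 and ran from 2.83 to 4.11. No paired analysis was possible because the labels give no replicate numbers; the numbers used here only name the libraries and tie no animals together.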
